A study of Mus musculus with 6 samples.

Results

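Marker genes of myeloid cells were examined in RNA from the antral mucosa of mice, 3 with both copies of Muc6 disrupted (labelled Muc6 -/-, libraries MUC6KO1 to MUC6KO3, here knockout 1 to 3) and 3 with both copies intact (labelled Muc6 +/+, libraries WT1 to WT3, here wild type 1 to 3). The antrum is the distal part of the stomach, and Muc6 encodes the gel-forming mucin of its glands. The 35 genes were taken from a list of macrophage, dendritic cell and neutrophil markers and matched by Ensembl identifier among the 34866 genes of the deposited table, where every one of the 35 was found. They fall into 9 pan-leukocyte and pan-myeloid genes, 11 macrophage and monocyte genes, 4 dendritic cell genes and 11 neutrophil genes. For strain, age, sex, the form of the Muc6 allele and the number of animals behind a library, nothing was stated in the labels.

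Myeloid cells arise from bone marrow or fetal precursors and share a transcription factor, PU.1, the product of Spi1. In the stomach wall, resident macrophages take up dying cells and microbes and depend on the growth factor receptor encoded by Csf1r. Dendritic cells carry antigen to lymph nodes. Neutrophils are short-lived blood cells with few transcripts that are rare in healthy mucosa and enter tissue on chemokine signals, and their granule proteins are made in the bone marrow, so a mature neutrophil carries little Mpo or Elane RNA.

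Total estimated counts were 19839799 to 21354029 per library. Levels are given as CPM, counts per 1e6 of the composition-scaled (TMM) library size, in which 1 count is worth 0.0415 to 0.0579 CPM. Changes are given on the log2 scale, knockout over wild type, from edgeR's quasi-likelihood test, with standard errors (SE) and Benjamini-Hochberg adjusted p values over all 14017 genes tested, called at a false discovery rate of 0.05. Muc6 had 1, 0 and 0 counts in knockout 1, 2 and 3, against 7295, 7158 and 8795 counts in wild type 1, 2 and 3. All 12 epithelial genes listed for the antrum were detected in every library, but their levels differed. They summed to 59060, 70550 and 72510 CPM in knockout 1, 2 and 3, against 200100, 172200 and 189100 CPM in wild type 1, 2 and 3. Of the 12, 5 were called higher and 6 lower. The Y-linked gene Ddx3y lay between 39.2 and 41.1 CPM in the knockout libraries and between 0.0579 and 0.326 CPM in the wild-type libraries, so sex and genotype cannot be told apart.

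The libraries numbered 1 stood apart from the others of their genotype. The summed level of 14 stromal genes was 461, 1082 and 875 CPM in knockout 1, 2 and 3, against 181, 1424 and 2606 CPM in wild type 1, 2 and 3, and each of the 14 was lowest among wild-type libraries in wild type 1. Of the 35 myeloid genes, 25 (71.4%) were lowest in wild type 1 among wild-type libraries, which held for 41.3% of tested genes. In knockout 1, 20 of the 35 (57.1%) were highest among knockout libraries, against 40.3% of tested genes. The 35 include 9 members too low to test, and ties were set aside for members but not for all tested genes. Values without these libraries are given below where they end a call or move it most. In bulk tissue, more cells of a type and more RNA per cell cannot be told apart.

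Most myeloid genes were more abundant in the knockout, but few passed the test. In the knockout the 35 genes together had 9743, 3253 and 3216 counts, against 398, 1202 and 1472 counts in the wild type. All 3 knockout libraries lay above all 3 wild-type libraries for 21 of the 35 (60.0%), which held for 28.2% of tested genes, and the knockout lay wholly below for none, against 26.6% of tested genes. A filter on low counts left 26 of the 35 for testing, and 19 of these were among the 21. Members near 0 in the wild type, such as Csf3r, S100a8 and S100a9, could pass this filter only through the knockout. Their tests lean to higher by selection, as do those of such genes in the lists below. Of these 26, 5 rose (19.2%), Laptm5, Fcgr3, Csf3r, Itgax and Ptprc, and none fell (none also at an unadjusted p under 0.05, and none with DESeq2 or limma-voom). Over all tested genes 19.3% were called higher and 19.2% lower, so the number of calls was at the background. The median log2 change of the 26 was 1.71, and that of all tested genes 0.02. Leaving out both libraries numbered 1 moved the number of members called higher to 16 of 26 and called Ccr2 as lower, against 23.7% of all tested genes called higher and 24.3% lower in that fit. Without wild type 1, 11 of 27 members were called higher (all genes 20.9%), without wild type 2 only Laptm5 was (all genes 11.0%), and without wild type 3 Laptm5 and Ptprc were (all genes 13.2%). Leaving out knockout 1, 2 or 3 gave 4 members each time, where 15.6%, 12.6% and 14.5% of all tested genes were called higher. With other scalings and tools, the members called higher were 5 with RLE scaling (all genes 18.7%), 15 with total counts (40.8%), 6 with no filter (12.6%), 4 with a filter of 1 CPM in 3 libraries (20.2%), 16 with DESeq2 (19.4%), 10 with limma-voom (18.5%) and 6 with the replicate block (18.3%).

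**Figure D1:**
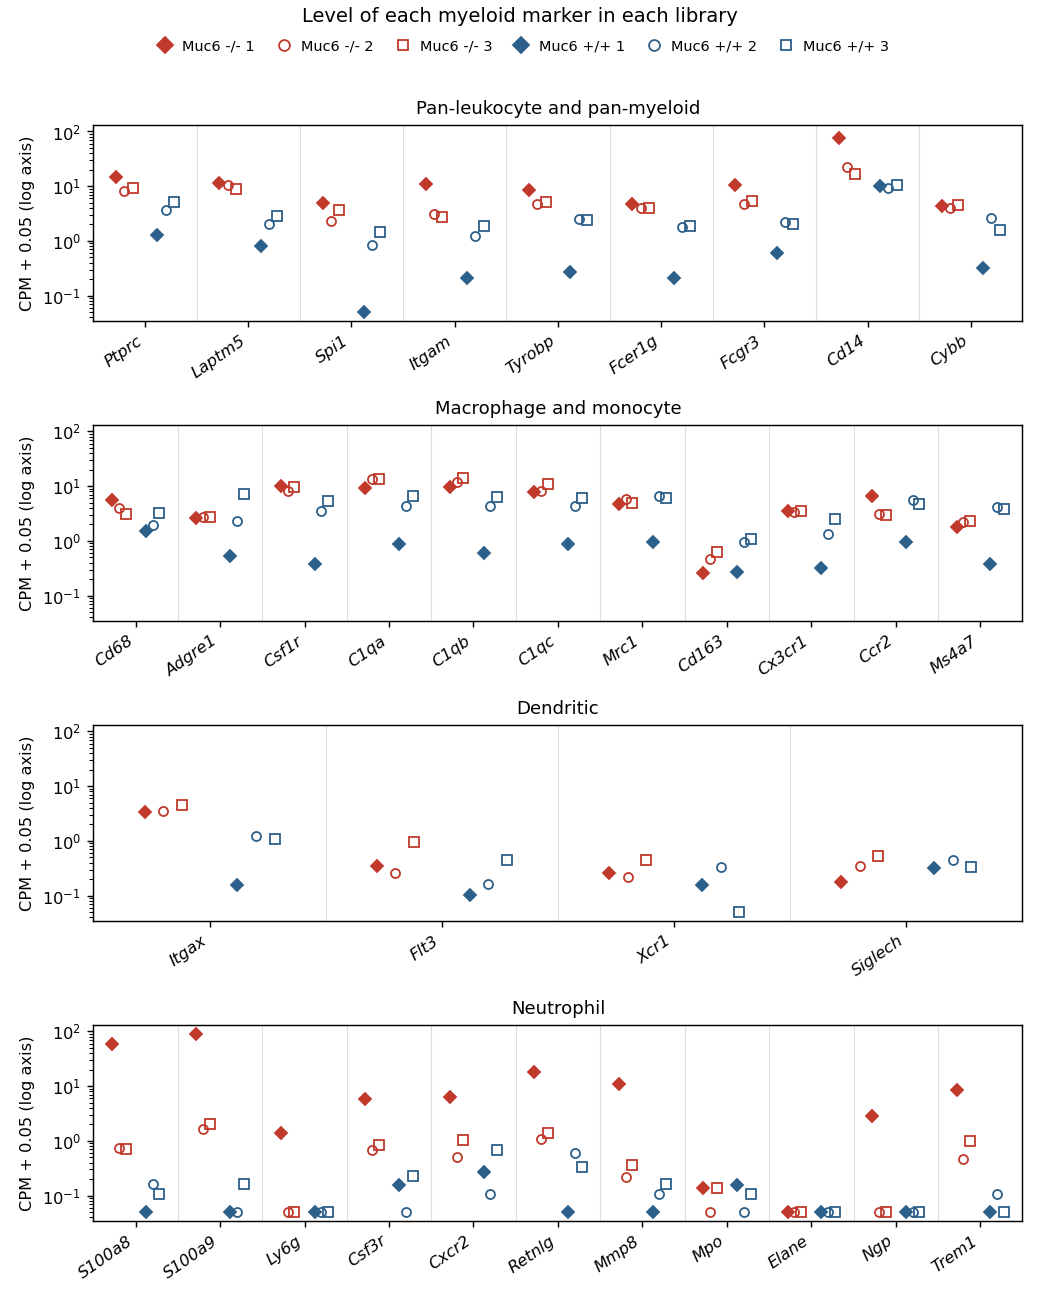
Level of each of the 35 myeloid genes in each library, as CPM plus 0.05 on a log axis, with knockout libraries in red left of wild-type libraries in blue, and libraries numbered 1 as filled diamonds. Wild type 1 lies lowest for most pan-myeloid and macrophage genes, and knockout 1 stands far above all other libraries for S100a8, S100a9, Mmp8, Ngp and Trem1.

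Genes of all leukocytes or all myeloid cells lay higher in every knockout library, by between 2.93-fold (Cybb) and 5.50-fold (Laptm5) on summed levels. Laptm5, which encodes a lysosomal membrane protein of blood cells, had 11.3, 10.46 and 8.71 CPM in knockout 1, 2 and 3, against 0.760, 2.02 and 2.84 CPM in wild type 1, 2 and 3. The knockout libraries were close to each other and the groups did not overlap. Laptm5 rose by 2.44 on the log2 scale (SE 0.44, adjusted p = 0.00514, edgeR), and it was the only member called in the main test and in all 14 alternatives, with adjusted p of 1.9e-07 to 0.028. Ptprc, the CD45 phosphatase of every leukocyte, had 14.6, 8.01 and 9.11 CPM in the knockout libraries and 1.25, 3.65 and 5.16 CPM in the wild-type libraries. It rose by 1.66 (SE 0.50, adjusted p = 0.0369, edgeR), a call that ended without wild type 2 (0.105) and without any 1 knockout library (0.0605 to 0.0918).

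Adaptor and Fc receptor genes also lay higher in every knockout library than in any wild-type library. Fcgr3, a low-affinity receptor for IgG antibodies whose close relatives may share reads with it, had 10.4, 4.61 and 5.27 CPM in the knockout libraries, against 0.543, 2.14 and 2.03 CPM in the wild-type libraries, and it rose by 2.11 (SE 0.56, adjusted p = 0.0228, edgeR). Its change was 1.66 without knockout 1, where the call ended (0.0629), as it did without wild type 2 (0.054) or wild type 3 (0.0537). Fcer1g, the signalling chain that Fc receptors share, had 4.75, 3.99 and 4.01 CPM in the knockout, against 0.163, 1.74 and 1.85 CPM in the wild type. Tyrobp, the DAP12 adaptor that carries signals of receptors such as Trem1, had 8.57, 4.69 and 5.19 CPM in the knockout, against 0.217, 2.47 and 2.32 CPM in the wild type. Neither passed the test (adjusted p = 0.0844 and 0.0851, edgeR), although their groups did not overlap, and wild type 1 lay about an order of magnitude below the other wild-type libraries for both. Without wild type 1 both were called (0.0184 and 0.0235).

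The other pan-myeloid genes did not pass, with adjusted p of 0.0577 to 0.103 in edgeR. Spi1 had 116, 55 and 84 counts in the knockout libraries, against 0, 14 and 24 counts in the wild-type libraries. Itgam, the integrin CD11b of neutrophils and macrophages, had 10.99, 3.03 and 2.66 CPM in the knockout, against 0.163, 1.18 and 1.80 CPM in the wild type, so knockout 1 held most of it, and its change of 2.41 was 1.45 without that library. Cybb, the X-linked gene of the gp91 subunit of the phagocyte oxidase, had 4.24, 4.03 and 4.40 CPM in the knockout, against 0.271, 2.53 and 1.56 CPM in the wild type. Cd14, a coreceptor for bacterial lipopolysaccharide, had 75.9, 22.3 and 16.4 CPM in the knockout, against 10.2, 9.27 and 10.4 CPM in the wild type. Unlike the other genes of the class, Cd14 was not low in wild type 1. Its log2 change was 1.94 (SE 0.63, adjusted p = 0.0577, edgeR) over all libraries and 0.97 without knockout 1, where it was called (0.00989). Per kilobase of exon, Cd14 was the most abundant of the 9, at 22.1 CPM in the knockout and 5.73 CPM in the wild type, followed by Tyrobp at 9.22 and 2.50 CPM.

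**Figure D2:**
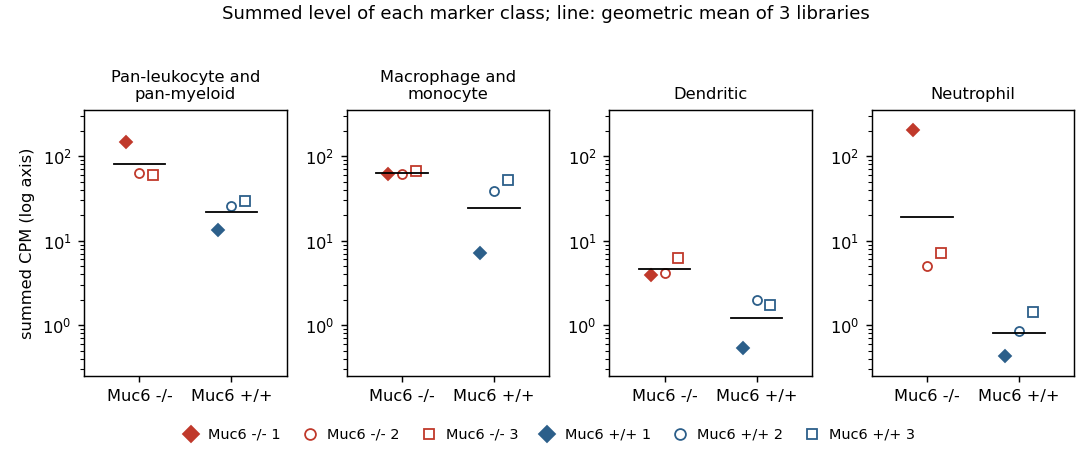
Summed CPM of the genes of each class in each library, on a log axis shared by the panels, knockout left of wild type, with a line at the geometric mean of 3 libraries. The macrophage sums of the knockout libraries lie together at 60.9 to 67.4 CPM, while knockout 1 carries 203.0 CPM of neutrophil genes against 4.98 and 7.10 CPM in knockout 2 and 3.

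Among macrophage genes, 5 of 11 lay higher in every knockout library than in any wild-type library, which held for 28.2% of tested genes, and 6 overlapped. None of the 11 passed the test over all libraries. At an unadjusted p under 0.05, 2 of the 11 were higher (Cd68 and C1qa, adjusted p = 0.096 and 0.0987, edgeR) and none lower, and both DESeq2 and limma-voom called 3 higher (C1qa, C1qb and Csf1r). The sums over the class were 60.9, 62.5 and 67.4 CPM in knockout 1, 2 and 3, against 7.11, 38.9 and 52.8 CPM in wild type 1, 2 and 3. The difference of mean log2 sums was 1.38 over all libraries and 0.49 without wild type 1. C1qa, C1qb and C1qc encode the chains of C1q, the complement starter that tissue macrophages secrete, and lie side by side on chromosome 4. C1qa had 9.04, 13.3 and 13.4 CPM in the knockout libraries, against 0.814, 4.27 and 6.66 CPM in the wild-type libraries. C1qb had 9.55, 11.8 and 13.9 CPM in the knockout, against 0.543, 4.38 and 6.32 CPM in the wild type. C1qc had 7.68, 8.10 and 10.7 CPM in the knockout, against 0.814, 4.21 and 6.08 CPM in the wild type. For each chain the groups did not overlap, and the log2 changes of 1.61, 1.65 and 1.25 did not pass (adjusted p = 0.0987, 0.127 and 0.154, edgeR). Leaving out both libraries numbered 1 gave 1.27, 1.24 and 0.85, and all 3 chains were called (0.00333, 0.00332 and 0.0282).

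The 250 bases before the start of C1qb and of C1qc are printed because these neighbours moved together. They come from RefSeq (GRCm38.p6; C1qa has no entry in the table used), on the minus strand, chr4:136886201-136886450 for C1qb and chr4:136892915-136893164 for C1qc. Capitals mark matches on either strand to GAGGAA, a PU.1 core motif, or to TTNNGCAA, a C/EBP motif, each searched over the same 250 bases of 27025 genes.
C1qb: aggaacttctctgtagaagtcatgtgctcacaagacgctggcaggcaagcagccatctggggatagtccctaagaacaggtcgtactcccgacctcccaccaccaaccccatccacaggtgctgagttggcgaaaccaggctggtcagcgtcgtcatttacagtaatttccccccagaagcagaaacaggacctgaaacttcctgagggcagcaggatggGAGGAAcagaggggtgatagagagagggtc
C1qc: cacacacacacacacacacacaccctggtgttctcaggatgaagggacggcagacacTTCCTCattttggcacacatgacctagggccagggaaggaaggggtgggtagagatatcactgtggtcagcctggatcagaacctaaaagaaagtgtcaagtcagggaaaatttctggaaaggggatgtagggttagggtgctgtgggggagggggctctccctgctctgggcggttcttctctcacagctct
GAGGAA or TTCCTC stood in 23.1% of all promoters and in 16 of the 29 member genes with an entry (55.2%), and TTNNGCAA or TTGCNNAA in 9.55% and in 8 of 29 (27.6%). C1qb held GAGGAA beginning 30 bases before its start and C1qc held TTCCTC beginning 193 bases before. A match is a description of the letters and does not show that a factor binds.

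Csf1r, the receptor that keeps macrophages alive, had 9.89, 7.97 and 9.54 CPM in the knockout, against 0.326, 3.43 and 5.39 CPM in the wild type (log2 change 1.58, SE 0.79, adjusted p = 0.162, edgeR). Without wild type 1 its change was 1.04 and it was called (0.0188). Part of its exons overlaps Hmgxb3 on the other strand, and the use of strand in counting is not given in the sources used here. Cx3cr1, the fractalkine receptor of resident macrophages and monocytes, had 3.48, 3.36 and 3.49 CPM in the knockout, against 0.271, 1.29 and 2.43 CPM in the wild type, without overlap. Cd68, a lysosomal protein of macrophages, had 5.56, 3.99 and 3.09 CPM in the knockout and 1.47, 1.91 and 3.13 CPM in the wild type, and its groups overlapped.

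Another 5 macrophage genes did not share this order. Mrc1, the mannose receptor CD206 of resident macrophages, had 4.67, 5.69 and 4.79 CPM in the knockout libraries, against 0.923, 6.52 and 6.14 CPM in the wild-type libraries. Ms4a7, a membrane protein gene of mature macrophages, had 1.74, 2.20 and 2.31 CPM in the knockout, against 0.326, 4.10 and 3.77 CPM in the wild type. Cd163, the haemoglobin scavenger receptor, had 5, 10 and 13 counts in the knockout, against 4, 16 and 18 counts in the wild type. For all 3 genes, every knockout library lay below wild type 2 and wild type 3 and above or near wild type 1. Ccr2, the chemokine receptor that brings monocytes from blood, had 6.45, 2.99 and 2.88 CPM in the knockout, against 0.923, 5.62 and 4.69 CPM in the wild type. Adgre1, which encodes the F4/80 antigen, had 2.59, 2.74 and 2.70 CPM in the knockout and 0.488, 2.30 and 7.13 CPM in the wild type. The log2 changes of the 5 lay between -0.84 (Cd163) and 0.16 (Mrc1), with adjusted p of 0.372 to 0.886 in edgeR, and those of Mrc1 and Ccr2 were below 0 without wild type 1 while those of Adgre1 and Ms4a7 were above 0 with total-count scaling.

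Because wild type 1 held so few macrophage counts, the make-up of these counts was also compared within each library, which no scaling factor touches. This comparison was chosen after the values were seen. The 11 genes had 1434, 1505 and 1547 counts in knockout 1, 2 and 3, against 131, 693 and 911 counts in wild type 1, 2 and 3. C1qa made up 14.9%, 21.3% and 19.9% of them in the knockout libraries, against 11.5%, 10.97% and 12.6% in the wild-type libraries. Csf1r made up 16.3%, 12.8% and 14.2% in the knockout, against 4.58%, 8.80% and 10.2% in the wild type. In contrast, Mrc1 made up 7.67%, 9.10% and 7.11% in the knockout, against 12.98%, 16.7% and 11.6% in the wild type. Cd163 made up 0.349%, 0.665% and 0.840% in the knockout, against 3.05%, 2.31% and 1.98% in the wild type, where the share in wild type 1 rests on 4 counts.

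Here wild type 1 lay between the other wild-type libraries for Adgre1, C1qa, C1qc, Mrc1, Cx3cr1 and Ccr2. It lay outside them for Csf1r, C1qb, Ms4a7, Cd163 and Cd68. Cd68 made up 20.6% in wild type 1, against 4.91% and 5.93% in wild type 2 and 3, which lowers the other shares of wild type 1. The knockout shares lay wholly above the wild-type shares for C1qa, C1qb, C1qc, Csf1r and Cx3cr1 and wholly below for Mrc1, Cd163, Ms4a7 and Adgre1, while Cd68 and Ccr2 overlapped. Summed C1q counts were 5.63, 5.83 and 7.94 times those of Mrc1 in the knockout libraries, against 2.35, 1.97 and 3.10 times in the wild-type libraries. They were 15.1, 15.1 and 16.5 times those of Ms4a7 in the knockout, against 6.67, 3.14 and 5.06 times in the wild type. Each of these ratios, and each of the 9 shares without overlap, had an exact permutation p of 0.1 (two-sided, n = 3 each), which is the smallest that 3 against 3 libraries can give and does not pass 0.05. The shares sum to a whole, so a higher share of some genes lowers those of others.

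**Figure D3:**
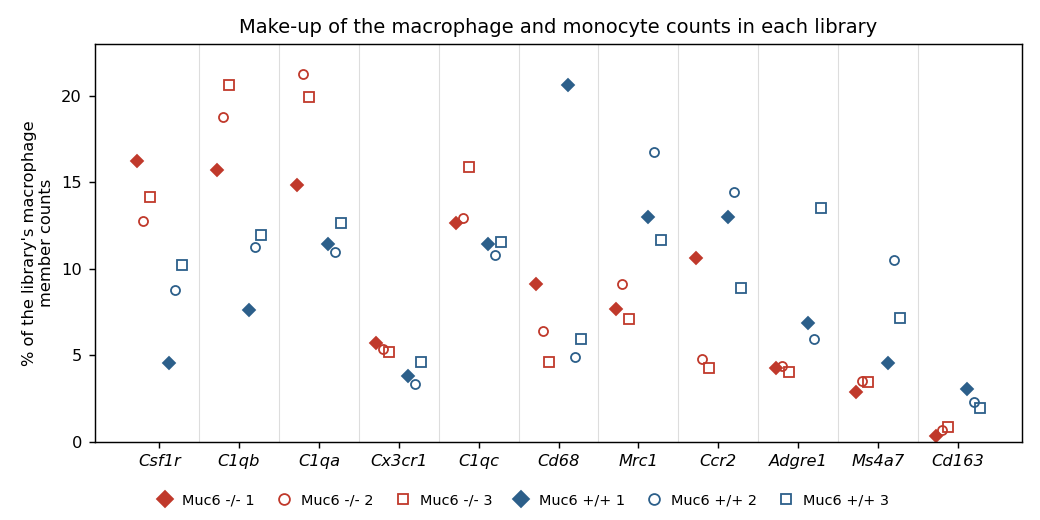
Share of each macrophage gene in the macrophage counts of a library, in percent, knockout libraries in red left of wild-type libraries in blue, ordered by the ratio of mean shares. The C1q chains, Csf1r and Cx3cr1 take a larger share in each knockout library, and Mrc1, Ms4a7, Adgre1 and Cd163 a smaller share. Wild type 1 lies outside the other wild-type libraries for Cd68, Csf1r, C1qb, Ms4a7 and Cd163.

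Of the 4 dendritic cell genes, Itgax rose and the others were too low to test. Itgax, the integrin CD11c of dendritic cells and many mucosal macrophages, had 3.31, 3.49 and 4.44 CPM in the knockout libraries, against 0.109, 1.18 and 1.04 CPM in the wild-type libraries, and rose by 2.26 on the log2 scale (SE 0.69, adjusted p = 0.0349, edgeR). That call ended when any 1 library other than wild type 1 was left out (0.0542 to 0.0933). Flt3, a growth factor receptor of dendritic cells and their precursors, had 7, 5 and 21 counts in the knockout and 1, 2 and 7 counts in the wild type. Xcr1, a receptor of cross-presenting dendritic cells, had 5, 4 and 9 counts in the knockout and 2, 5 and 0 counts in the wild type. Siglech, of plasmacytoid dendritic cells, had 3, 7 and 11 counts in the knockout and 5, 7 and 5 counts in the wild type. The groups of Flt3, Xcr1 and Siglech overlapped. The ratio of summed Flt3 levels, knockout over wild type, was 2.5 (95% interval 1.20 to 5.69), an interval wholly above equal levels. For Xcr1 and Siglech the ratios were 1.95 (0.776 to 5.52) and 0.936 (0.470 to 1.89), and differences were not detectable at this depth. These intervals cover counting error only, not the spread among libraries.

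Neutrophil genes were far more abundant in knockout 1 than in the other 5 libraries. Their 11 genes together had 4782 counts in knockout 1 and 120 and 163 counts in knockout 2 and 3, against 8, 15 and 25 counts in wild type 1, 2 and 3. S100a8 and S100a9 encode the subunits of calprotectin, the most abundant cytosolic protein pair of neutrophils, which squamous and inflamed epithelia can also make. S100a9 had 2108, 38 and 45 counts in the knockout libraries, against 0, 0 and 2 counts in the wild-type libraries. S100a8 had 1412, 17 and 15 counts in the knockout, against 0, 2 and 1 counts in the wild type. Knockout 1 stood far above the other knockout libraries, which themselves lay above every wild-type library.

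The ratio of summed S100a9 levels, knockout over wild type, was 830 (95% interval 230 to 6857) with knockout 1 and 47.2 (12.7 to 396) without it. For S100a8 it was 365 (125 to 1770) with knockout 1 and 12.1 (3.79 to 61.9) without it. These intervals cover counting error only. With all libraries neither gene passed the test (adjusted p = 0.0533 and 0.0715, edgeR), and without knockout 1 both did (0.00752 and 0.0272). The 2 genes made up 73.6% of the neutrophil sum in knockout 1, 45.8% in knockout 2 and 36.8% in knockout 3.

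S100a8 and S100a9 are neighbours on chromosome 3, and the 250 bases before their starts are printed because these held most of the neutrophil counts in knockout 1. Per RefSeq (GRCm38.p6) they lie at chr3:90668821-90669070 on the plus strand for S100a8 and chr3:90695722-90695971 on the minus strand for S100a9, and capitals mark the same motifs.
S100a8: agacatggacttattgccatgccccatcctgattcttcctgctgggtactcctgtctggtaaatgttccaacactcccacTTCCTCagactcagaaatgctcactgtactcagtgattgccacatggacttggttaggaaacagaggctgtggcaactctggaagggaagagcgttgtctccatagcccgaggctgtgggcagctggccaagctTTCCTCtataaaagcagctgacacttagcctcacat
S100a9: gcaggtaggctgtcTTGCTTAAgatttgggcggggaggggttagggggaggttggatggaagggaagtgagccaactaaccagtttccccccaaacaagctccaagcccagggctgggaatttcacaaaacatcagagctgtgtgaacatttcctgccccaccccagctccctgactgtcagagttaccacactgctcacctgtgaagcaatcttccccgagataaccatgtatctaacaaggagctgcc
S100a8 held TTCCTC beginning 170 and 36 bases before its start. S100a9 held a match to the C/EBP letters only, TTGCTTAA, and none to GAGGAA or TTCCTC in this window.

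Receptor genes of neutrophils were also highest in knockout 1, at lower levels. Csf3r, the receptor for the neutrophil growth factor G-CSF, had 134, 15 and 18 counts in the knockout, against 2, 0 and 3 counts in the wild type, and was the only neutrophil gene called over all libraries (log2 change 4.57, SE 1.25, adjusted p = 0.0259, edgeR). Csf3r could pass the low-count filter only through the knockout, so this call leans to higher by selection. Its change was 2.83 without knockout 1, where the call ended (0.0518), as it did without any 1 wild-type library (0.0636 to 0.0817) and with limma-voom (0.0863). Cxcr2, the receptor for chemokines such as Cxcl1 and Cxcl5, had 6.20, 0.457 and 1.002 CPM in the knockout, against 0.217, 0.0562 and 0.637 CPM in the wild type, and its groups overlapped. Its log2 change was 3.06 (adjusted p = 0.082, edgeR), and 1.26 without knockout 1. Trem1, a receptor that amplifies inflammatory signals through Tyrobp, had 200, 10 and 22 counts in the knockout, against 0, 1 and 0 counts in the wild type, a ratio of 176 (95% interval 31.2 to 6971) with knockout 1 and 36.4 (6.08 to 1481) without it. Trem1 was removed by the low-count filter and was called when no filter was used (adjusted p = 0.0341, edgeR). Where the filter kept it with 1 wild-type library left out, it was not called (0.0742 to 0.1).

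Secreted and granule products ranged from the abundant Retnlg to the undetected Elane. Retnlg, a resistin-like peptide of mature neutrophils, had 430, 25 and 31 counts in the knockout, against 0, 10 and 5 counts in the wild type. Its log2 change was 4.58 (adjusted p = 0.0703, edgeR), and 2.06 without knockout 1. Mmp8, the neutrophil collagenase, had 252, 4 and 7 counts in the knockout, against 0, 1 and 2 counts in the wild type, a ratio of 66.4 (95% interval 22.5 to 324) with knockout 1 and 4.17 (1.10 to 23.3) without it. Ngp, a granule protein, had 67 counts in knockout 1 and 0 in each of the other 5 libraries, so that its signal rests on that library alone. Ly6g, the antigen recognised by anti-neutrophil antibodies and a member of a family of close copies, likewise had 31 counts in knockout 1 and 0 elsewhere. Mpo had 2, 0 and 2 counts in the knockout and 2, 0 and 1 counts in the wild type, and Elane had no counts in any library. Both are genes of bone marrow precursors. For Elane, a count of 0 over a group allows up to 0.0425 CPM in the knockout and 0.0561 CPM in the wild type.

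**Figure D4:**
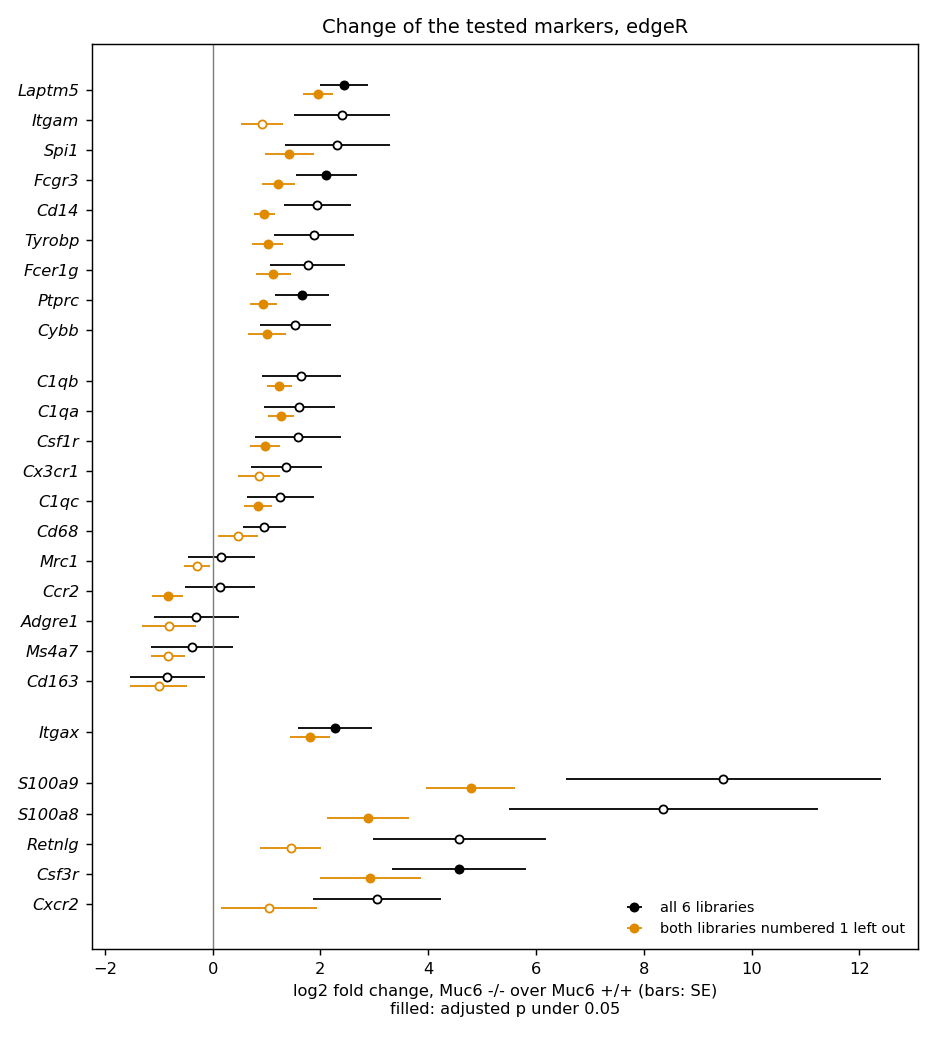
Log2 fold change of knockout over wild type for the 26 tested genes by class, with SE bars, over all 6 libraries (black) and with both libraries numbered 1 left out (orange), filled where the adjusted p was under 0.05. Most pan-myeloid and C1q values become smaller with shorter bars, S100a9 moves to 4.79 and S100a8 to 2.88, and Ccr2 lies below 0.

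Several partners of Cybb in the phagocyte oxidase, which makes superoxide, rose in the knockout, beside 19.3% of all tested genes called higher. Ncf4, a cytosolic subunit, had 28, 26 and 29 counts in the knockout libraries, against 0, 3 and 3 counts in the wild-type libraries, and rose by 3.31 on the log2 scale (SE 0.77, adjusted p = 0.0132, edgeR). Being near 0 in the wild type, Ncf4 could pass the low-count filter only through the knockout. Ncf1, another cytosolic subunit, and the GTPase gene Rac2 rose by 2.29 and 1.62 (adjusted p = 0.0257 and 0.0175, edgeR). Cyba, the membrane partner of Cybb that epithelial cells also express, had 82.7, 47.4 and 30.9 CPM in the knockout, against 29.7, 19.1 and 19.0 CPM in the wild type, and rose by 1.25 (SE 0.39, adjusted p = 0.0466, edgeR). With both libraries numbered 1 left out, where 23.7% of all tested genes were called higher, these 4 genes were called, with adjusted p of 0.00698 to 0.0351. Without wild type 2 none of the 4 was (0.0509 to 0.148), and the call of Cyba also ended without any 1 other library except knockout 3 (0.0611 to 0.138), with RLE scaling (0.051), with limma-voom (0.0508) and with no filter (0.106). The call of Ncf1 also ended without knockout 1, knockout 2 or wild type 3 (0.0668 to 0.0674) and with the replicate block (0.0531), and that of Rac2 without knockout 3 (0.052).

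Of 18 listed growth factor and chemoattractant genes 14 were tested, and of these 8 rose and none fell, with a median of 2.25. Genes near 0 in the wild type, such as Cxcl1, could pass the low-count filter only through the knockout. This count and median therefore lean to higher by selection. Of all tested genes, 19.3% were called higher and 19.2% lower. Cx3cl1, the ligand of Cx3cr1, rose by 1.10 (SE 0.14), with 49.3, 51.9 and 43.1 CPM in the knockout and 25.4, 19.2 and 22.8 CPM in the wild type. Il34, an alternative ligand of Csf1r, rose by 2.28 (SE 0.36), and C3, the central complement component, by 2.21 (SE 0.41). Cxcl1, a ligand of Cxcr2, rose by 7.17 (SE 0.86, adjusted p = 0.00135, edgeR), with 10.1, 16.8 and 8.06 CPM in the knockout, against 0, 0.225 and 0 CPM in the wild type. Cxcl1 was not highest in knockout 1, whereas the sum of Cxcl1, Cxcl2, Cxcl3 and Cxcl5 was 127, 31.9 and 16.0 CPM in knockout 1, 2 and 3, against 0, 0.899 and 0.116 CPM in wild type 1, 2 and 3. Cxcl5 alone had 48.8, 6.06 and 4.01 CPM in the knockout, against 0, 0.112 and 0 CPM in the wild type. Csf1, the main ligand of Csf1r, did not pass (1.04, SE 0.64, adjusted p = 0.23, edgeR). Without wild type 3 the number called was 4 of 15, and with limma-voom 5 of 14.

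Further Fc receptor and adaptor signalling genes gave 2 calls of 14, both higher, fewer than the 19.3% of all tested genes, with a median of 1.2. These were Clec4e, the Mincle receptor that signals through Fcer1g, at 5.37 (SE 1.30), and the kinase gene Fgr at 2.31 (SE 0.75). Clec4e was 3.65 without knockout 1, and its call ended without wild type 2 (0.084) or wild type 3 (0.0569) and with limma-voom (0.1). The call of Fgr ended without any 1 library (0.0555 to 0.119). With total counts, a scaling that moved the median of all tested genes by 0.416, 10 were called higher (all genes 40.8%), and without wild type 2 none was. Other macrophage and monocyte genes moved both ways, with 3 of 18 higher, 4 lower and a median of 1.02, close to the background of 19.3% higher and 19.2% lower. The number lower was 1 without knockout 2, knockout 3, wild type 2 or wild type 3, and 2 without knockout 1. Chil3, a chitinase-like protein, and Apoe, the lipid carrier, rose by 7.48 (SE 1.11) and 1.72 (SE 0.38), while Plac8 and Spp1 (osteopontin), which epithelial cells also express, fell by 0.85 and 3.08 in log2 units. For Spp1 the call ended without any 1 library other than knockout 1 (0.07 to 0.0999), and that of Apoe without wild type 2 (0.0675). Among other dendritic cell genes 4 of 9 rose and none fell, with a median of 1.69, beside the same background of 19.3% and 19.2%. These were the transcription factor gene Irf8 (1.69, SE 0.25), the integrin gene Itgae (2.89), which T cells of the epithelium also use, the chemokine gene Ccl22 (2.93) and the interferon-induced Bst2 (2.65).

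Of 20 other neutrophil genes 7 could be tested, and 5 of the 7 were called, all higher, against 19.3% of all tested genes. Their median was 6.21, and 3.86 without knockout 1. A gene near 0 in the wild type could pass the low-count filter only through the knockout, so this count leans to higher by selection. The 20 listed genes summed to 695 CPM in knockout 1 and to 67.5 and 51.7 CPM in knockout 2 and 3, against 4.02, 6.18 and 5.50 CPM in wild type 1, 2 and 3. Lcn2, an iron-binding defence protein, and Mmp9, a gelatinase, rose by 6.74 (SE 1.09) and 7.49 (SE 1.30), and Ltf (lactoferrin) and Il1b by 10.98 (SE 2.34) and 6.21 (SE 1.71). Without knockout 1 these changes were 6.11, 6.31, 8.25 and 3.86 for Lcn2, Mmp9, Ltf and Il1b. The calls of Ltf and Il1b ended without any 1 wild-type library (0.0683 to 0.119). They also ended with limma-voom (0.268 and 0.29) and with no filter (0.0515 and 0.096). That of Il1b ended without knockout 2 (0.0559) and that of Mmp9 with limma-voom (0.0601). A source of these transcripts outside neutrophils was not tested. Mmp9 had 23.7, 3.404 and 6.49 CPM in the knockout, against 0, 0 and 0.174 CPM in the wild type. Camp, a granule gene of immature neutrophils, had 3 counts in knockout 1 and none in the other 5 libraries. With limma-voom 1 of 7 was called, and 2 of 10 without any 1 wild-type library.

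Markers of other cells also differed between the genotypes, and their part in the results above was not tested. The counts of calls in these lists stand beside 19.3% higher and 19.2% lower over all tested genes. Globin RNA, a sign of blood in the tissue, summed over 4 genes to 313, 104 and 146 CPM in knockout 1, 2 and 3, against 5.05, 11.1 and 12.1 CPM in wild type 1, 2 and 3, and 5 of 6 tested blood genes rose. Of 17 further pan-leukocyte genes, 8 rose and 1 fell, with a median of 1.94. The number that rose was 2 without wild type 2 (all genes 11.0%), 3 without knockout 1 (15.6%), 4 without knockout 2 or knockout 3 (12.6% and 14.5%), and 13 with total counts (40.8%). Lists of lymphoid cells rose as far as they could be tested, with 4 of 4 T and NK cell genes (17 listed) and 6 of 6 B and plasma cell genes (13 listed) higher. A gene near 0 in the wild type could pass the low-count filter only through the knockout, so such counts lean to higher by selection. Ptprc and Laptm5 are active in lymphoid cells as well. The 17 listed T and NK cell genes summed to 7.43, 12.6 and 14.4 CPM in the knockout, against 0.597, 0.843 and 1.33 CPM in the wild type. In the mast cell list, whose cells also use Fcer1g, 3 of 9 rose, the proteases Mcpt1, Mcpt2 and Mcpt4. Of 8 eosinophil genes 3 (Epx, Ear1 and Ear6) had no counts, and the 1 tested, Siglecf, did not pass (0.33, SE 0.47, adjusted p = 0.602, edgeR). Squamous markers gave 4 calls of 6, all higher, with log2 changes of 7.32 for Ivl, 4.89 for Krt14, 4.42 for Krt4 and 2.96 for Krt13. Krt5 had 0.297, 0.374 and 0.566 CPM in the knockout, against 0, 0.0562 and 0 CPM in the wild type. Trp63 had 0, 0.291 and 0 CPM in the knockout, against 0, 0.169 and 0 CPM in the wild type. The 12 listed squamous genes summed to 492, 698 and 611 CPM in knockout 1, 2 and 3, against 452, 311 and 410 CPM in the wild type. A squamous source of S100a8 and S100a9 was not tested.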

How the data were processed

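Per the labels' protocols, the kit for the antral mucosa libraries was TruSeq Stranded mRNA. The authors deposited estimated counts for each gene (1 column a library), read as such because many values are not whole. The build was mm10, per the submitters' processing notes. Aligner, counter and annotation: not given in the sources used here. No other columns of values were present.

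Estimated counts were rounded. Symbols, coordinates and exon lengths came from GENCODE M21 for 34582 of 34866 identifiers. Of the 35 members, 11 held a non-whole estimate in some library, and Csf1r, Itgam, Cx3cr1 and Mpo share exon bases with another annotated gene, so their levels are less certain. Genes were filtered with filterByExpr, scaled with TMM and tested with robust quasi-likelihood fits in edgeR 4.0.16, with Benjamini-Hochberg adjustment over 14017 genes. SE is the fold change divided by the root of the F statistic. The fit was tested on simulated data. Nothing states that libraries came from separate animals, so the tests reflect the spread among these libraries alone, and that spread may be technical. No libraries of a genotype agreed within counting noise.

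The members, gene lists and alternatives were chosen with earlier results of these data known. The rule for named genes was every member, with values for each library where a gene was tested or averaged at least 0.2 CPM, and in the other lists up to 4 genes with the smallest adjusted p among those called, or up to 2 where none was. For lists of other cell types mainly counts and sums are given. Mpo, Elane, Cyba, Csf1, Cxcl5, Camp, Krt5, Trp63, Epx, Ear1 and Ear6 and the genes of the other observations were named after their values were seen or by the member rule. Trem2, Ppbp and Lyve1 stand in 2 lists each. A result was left out and is not reported here. Alternatives were RLE or total-count scaling, no filter, DESeq2 1.42.0, limma-voom (limma 3.58.1), a minimum of 1 CPM in 3 libraries, a replicate block, each library left out, and both libraries numbered 1 left out.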

Additional observations from a re-analysis of the deposited data

How the results depend on the processing

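Among the 26 tested members, RLE scaling and no filter changed no call, and a filter of 1 CPM in 3 libraries changed none of the 22 left. The number called higher was 5, and 15 with total counts, 16 with DESeq2, 10 with limma-voom, 6 with the replicate block (where the calls of Ptprc and Fcgr3 ended, at 0.0826 and 0.0685) and 16 with both libraries numbered 1 left out, where 1 (Ccr2) was lower. Leaving out 1 library gave 1 to 11 higher and none lower. Over all genes, total counts gave 5718 higher and 1095 lower, and leaving out 1 library gave 1600 to 3044 higher and 1721 to 2964 lower. DESeq2 gave no adjusted p for 5 members (Mmp8, Mpo, Retnlg, S100a8 and S100a9). Changes not called in the main test crossed 0 for 4 genes. Adgre1 was 0.11 with total counts, 0.43 with limma-voom and 0.27 with the replicate block, and between -0.81 and 0.91 without 1 library. Ms4a7 was 0.026, 0.27 and 0.032 under the same 3 settings and between -0.93 and 0.040 without 1 library. Mrc1 and Ccr2 were -0.29 and -0.84 with both libraries numbered 1 left out, and between -0.34 and 0.53 and between -0.35 and 0.56 without 1 library. The log2 ratio of class sums moved by over 1 SD for pan-myeloid genes with both libraries numbered 1 left out (1.16, against 1.92) and for dendritic genes without Itgax (0.56, against 1.93). The cause of these changes was not tested. Whether replicate numbers pair the samples could not be settled with 3 libraries a group. The deviations of same-numbered libraries correlated at 0.252, 0.0908 and 0.191, and those of knockout 2 and wild type 3 at 0.275. The replicate block gave 2572 genes higher and 2497 lower, and not every library correlated best with its own number. Depth limits the 9 untested members, where 1 count is worth 0.0415 to 0.0579 CPM.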

Other observations

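Several genes of activated myeloid cells outside the 35 were also highest in knockout 1, and are given as values chosen after they were seen. Il1b, the inflammatory cytokine gene, had 69.8, 6.68 and 3.83 CPM in knockout 1, 2 and 3, against 0, 0.674 and 0.406 CPM in wild type 1, 2 and 3. Arg1, the arginase gene of some macrophages and neutrophils, had 32.3, 4.48 and 3.57 CPM in the knockout, against 4.07, 6.29 and 3.53 CPM in the wild type, so its level outside knockout 1 was alike in both genotypes. Csf3, which encodes G-CSF, the ligand of Csf3r, had 21, 3 and 0 counts in the knockout and 0, 1 and 0 counts in the wild type. Chil3 did not follow this order, with 20.1, 5.94 and 27.3 CPM in the knockout, against 0, 0.281 and 0 CPM in the wild type.

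A pair of genes that some resident macrophages express, chosen after their values were seen, had lower values in the knockout. They come from the list of other macrophage and monocyte genes, where 3 of 18 were higher and 4 lower, with a median of 1.02. Folr2, a folate receptor, had 0.127, 0.208 and 0.392 CPM in the knockout libraries, against 0.651, 1.29 and 0.753 CPM in the wild-type libraries, and fell by 1.87 on the log2 scale (SE 0.61, adjusted p = 0.045, edgeR). Lyve1, which lymphatic endothelium also expresses, had 2.63, 2.74 and 3.398 CPM in the knockout, against 3.47, 8.37 and 6.95 CPM in the wild type, and fell by 1.10 (SE 0.37, adjusted p = 0.0479, edgeR). Prox1, a lymphatic endothelial gene, fell by 1.88 (SE 0.50, adjusted p = 0.0227, edgeR). The calls of Folr2 and Lyve1 ended without any 1 library other than wild type 1 (0.0538 to 0.179 and 0.0822 to 0.182), and that of Prox1 without knockout 2 (0.0779) or wild type 2 (0.102). Both calls also ended with limma-voom (0.0531 for Folr2 and 0.0791 for Lyve1), total counts (0.0836 and 0.161) and the replicate block (0.0595 and 0.0574). That of Folr2 ended with DESeq2 (0.0795) and no filter (0.0854) as well. Mrc1 and Cd163, also genes of resident macrophages, did not pass. Other macrophage genes went the opposite way. Cx3cr1, Csf1r, C1qa, C1qb and C1qc lay higher in every knockout library, with log2 changes of 1.25 (C1qc) to 1.65 (C1qb), and did not pass either.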
